A study of Rattus norvegicus with 4 samples.

Results

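The macrophage and phagocyte genes described here are 38 listed genes. They are markers of the leukocyte and macrophage lineage, of resident, lipid-associated and inflammatory macrophages, and genes of phagocytosis and the lysosome. The list was drawn up with earlier results of these data known, so its counts beside shares of all genes are descriptive only. Through the accession printed with each probe, 37 of the 38 were found among 26633 genes and transcripts on the arrays, and Timd4, a receptor for phosphatidylserine on resident macrophages, was not matched. Of the 37, 35 were well above background on at least 1 array and 31 on all 4, while Mpeg1, which encodes the pore-forming perforin-2 of macrophages, and Marco, a scavenger receptor, were below background throughout.

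The soleus, a calf muscle made largely of slow fibres, was taken from male rats and profiled on 4 Agilent arrays of 1 colour, 1 for each group. Regenerated overloaded muscle came from rats aged 18 weeks and had carried both an earlier injury and a raised load. Overloaded muscle, labelled as hypertrophied, also came from rats of 18 weeks. Regenerated muscle was taken at 16 weeks of age, 8 weeks after an injection labelled CTX, which the labels leave unexplained and which usually stands for cardiotoxin, a venom toxin that destroys fibres. Normal muscle came from rats of 16 weeks. The strain, the means of overloading and the time since injection in the regenerated overloaded group are not given in the sources used here. Each group was the mixed RNA of 6 muscles, so n = 1 array, no difference has a replicate check and no test between groups was possible. Age and the row on the slide go with overload and cannot be told apart from it. The title letter L marks both injured groups and R the uninjured ones, letters that the labels leave unexplained and that cannot be told apart from injury.

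Macrophages live in skeletal muscle between the fibres and expand after injury, when they engulf dead fibres, release cytokines and growth factors, and later support rebuilding. Resident cells are known for scavenger and lectin receptors such as Cd163 and Mrc1. Lipid-associated cells, which handle cell debris and cholesterol, express Trem2, Gpnmb and Spp1, whereas inflammatory cells are known for interleukin-1 and Toll-like receptor signalling. Many macrophage genes depend on PU.1, the lineage factor encoded by Spi1, which binds a purine-rich DNA core.

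The promoter sequences of 6 members with differences of 2-fold or more in the comparisons below are shown to let their letters be compared around that core. Each is the stretch of 250 bases before the annotated start on the gene's own strand, from RefSeq on assembly GRCr8, with the letters GAGGAA or, for the other strand, TTCCTC in capitals. The positions are chr4:79340878-79341127 for Gpnmb, chr9:20151780-20152029 for Trem2, chr10:54882442-54882691 for Cd68, chr9:2329190-2329439 for Adgre1, chr2:185747298-185747547 for Ctsk and chr3:137036582-137036831 for Il1b. Gpnmb, Adgre1 and Ctsk lie on the plus strand, and Trem2, Cd68 and Il1b on the minus strand.
Gpnmb: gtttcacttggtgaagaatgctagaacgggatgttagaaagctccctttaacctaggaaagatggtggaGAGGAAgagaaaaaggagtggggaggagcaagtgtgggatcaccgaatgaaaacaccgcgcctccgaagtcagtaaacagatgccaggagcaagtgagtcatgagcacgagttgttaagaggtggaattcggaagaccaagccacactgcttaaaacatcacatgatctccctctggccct
Trem2: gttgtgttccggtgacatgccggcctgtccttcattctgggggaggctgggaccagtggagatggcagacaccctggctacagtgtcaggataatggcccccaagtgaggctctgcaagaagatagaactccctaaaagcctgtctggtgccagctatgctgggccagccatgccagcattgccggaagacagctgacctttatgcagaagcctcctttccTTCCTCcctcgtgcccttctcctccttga
Cd68: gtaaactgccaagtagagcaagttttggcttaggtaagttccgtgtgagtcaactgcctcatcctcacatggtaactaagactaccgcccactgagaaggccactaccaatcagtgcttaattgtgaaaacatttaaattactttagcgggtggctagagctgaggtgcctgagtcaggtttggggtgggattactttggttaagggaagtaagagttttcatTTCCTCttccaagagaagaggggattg
Adgre1: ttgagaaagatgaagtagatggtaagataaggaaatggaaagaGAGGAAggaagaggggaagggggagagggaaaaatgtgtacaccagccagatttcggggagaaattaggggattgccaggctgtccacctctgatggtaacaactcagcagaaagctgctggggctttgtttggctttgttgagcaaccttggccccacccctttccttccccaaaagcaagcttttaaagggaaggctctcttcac
Ctsk: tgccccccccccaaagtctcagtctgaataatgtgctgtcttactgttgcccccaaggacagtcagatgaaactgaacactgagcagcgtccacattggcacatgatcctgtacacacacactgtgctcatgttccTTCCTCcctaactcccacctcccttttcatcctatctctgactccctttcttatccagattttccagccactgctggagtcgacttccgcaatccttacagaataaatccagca
Il1b: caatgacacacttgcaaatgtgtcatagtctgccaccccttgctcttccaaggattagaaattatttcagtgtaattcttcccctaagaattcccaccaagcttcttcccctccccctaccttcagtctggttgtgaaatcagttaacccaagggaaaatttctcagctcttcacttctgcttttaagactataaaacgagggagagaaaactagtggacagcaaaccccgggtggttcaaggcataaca
Counted back from -1 at the base before the start, the core began at -27 in Cd68, -29 in Trem2, -114 in Ctsk, -181 in Gpnmb and -207 in Adgre1. The windows of Il1b, Il1rn and Tlr2 do not hold these letters. Of the 25 members with a window in the table, 16 (64%) hold the core on either strand, and 7812 of all 33469 windows (23.3%) do. A match of letters describes the window and does not show a binding site.

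Signals below are processed signals scaled so that the 75th percentile of every array stands at 749.8 intensity units, read from the brightest probe of a gene. The level of a gene can be compared between arrays but not with that of another gene's probe. Differences are on the log2 scale with a technical standard error (SE), which comes from repeated spots on the same array and leaves out all variation between muscles. In mixed whole-muscle RNA, more cells of a type and more RNA per cell cannot be told apart.

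The normal array had the lowest percentage of spots called well above background, 60.2% against 67.9% to 70.4% on the other arrays, and its median local background was highest, at 44 against 32 to 33 intensity units. All 8 slow muscle markers were above background on every array, and all 8 were lower in regenerated (median -0.24) and in overloaded (median -0.31) than in normal muscle. The part of this in the members' values was not tested. The members above background numbered 35, 35, 34 and 31 in regenerated overloaded, overloaded, regenerated and normal muscle. Among the 31 members above background on all arrays, 28 had their lowest signal in normal muscle, and 22 had their highest in regenerated overloaded muscle.

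**Figure D1:**
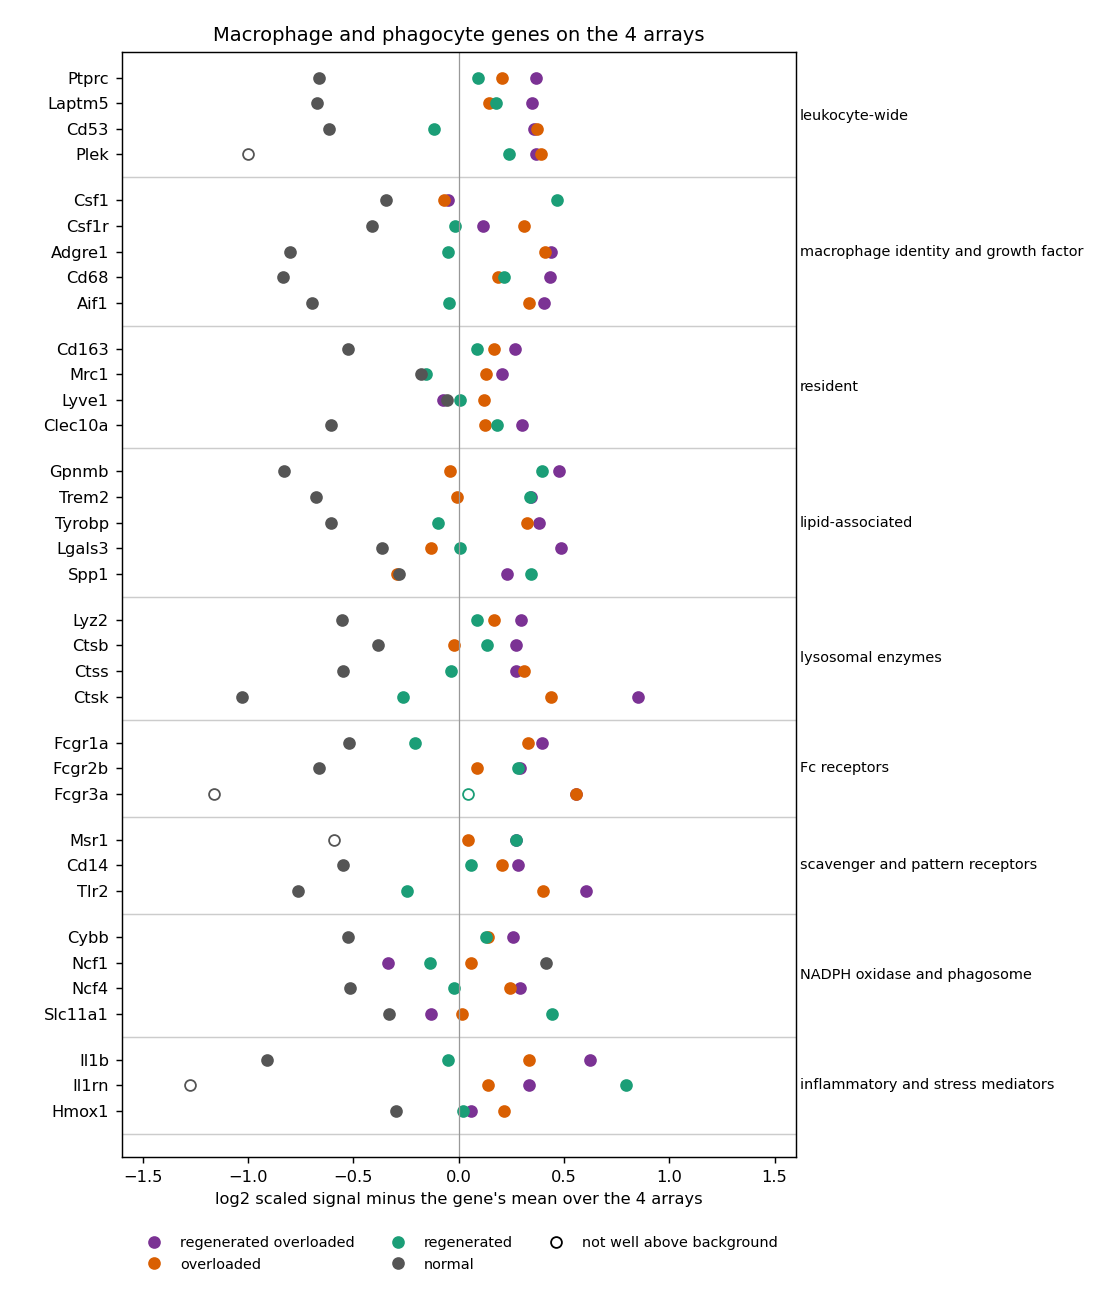
The horizontal axis is the log2 scaled signal of each gene minus that gene's mean over the 4 arrays, with 1 point per array and the 35 members above background on at least 1 array grouped by role; open points were not well above background. The normal array holds the lowest point for most members, Ncf1 runs the other way, and Lyve1 and Mrc1 spread little.

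Regenerated muscle was compared with normal muscle for what the members showed 8 weeks after the injection. Of 34 measured members, 4 were 2-fold or more higher in regenerated muscle: Il1rn, Gpnmb, Cd68 and Trem2. None was 2-fold lower. Over all 16911 measured genes and transcripts, 1.25% were 2-fold or more higher and 0.662% lower. At 1.5-fold, 20 members were higher, where 5.77% of all genes were. The 31 members above background on all arrays had a median difference of 0.62, and 30 of them were positive. Over all 14417 such genes the median was -0.11, and 33.7% were positive. Cd68 and Trem2 came just under 2-fold (0.99 each) with another background correction (normexp, which draws dim signals together), and also with median scaling.

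Overloaded muscle was compared with normal muscle for the difference that went with load without earlier injury. Here 7 of 35 members were 2-fold or more higher: Ctsk, Il1rn, Il1b, Adgre1, Tlr2, Aif1 and Cd68. None was lower, and over all 17308 measured genes 2.42% were higher and 0.74% lower by that limit. At 1.5-fold, 23 members were higher, against 7.93% of all genes. The median over the 31 members was 0.75, with 29 positive, beside a median of -0.12 and 35.3% positive over the 14417 genes. Both this comparison and the previous one use the normal array, so the likeness of their values is no independent evidence. With normexp, Adgre1 (0.95), Cd68 (0.94), Tlr2 (0.92), Il1rn (0.65) and Il1b (0.55) came under 2-fold, and Cd68 and Aif1 (0.91 each) did with median scaling.

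Load after injury was read from regenerated overloaded against regenerated muscle. Ctsk alone of 35 members was 2-fold or more higher, and none was lower. The share of all 17208 measured genes was 1.55% higher and 0.442% lower. At 1.5-fold Ctsk, Tlr2, Il1b and Fcgr1a were higher, 4 members beside 4.62% of all genes. The median over the 31 members was 0.21, with 26 positive, and that over the 14417 genes -0.03, with 44.5% positive.

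The difference that went with earlier injury in loaded muscle was read from regenerated overloaded against overloaded muscle. No member of 35 reached 2-fold in either direction, where 1.01% of all 17493 measured genes were higher and 0.68% lower. Lgals3 alone passed 1.5-fold, beside 3.02% of all genes. The median over the 31 members was 0.10, with 24 positive, and -0.02 over the 14417 genes, with 46.3% positive.

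**Figure D2:**
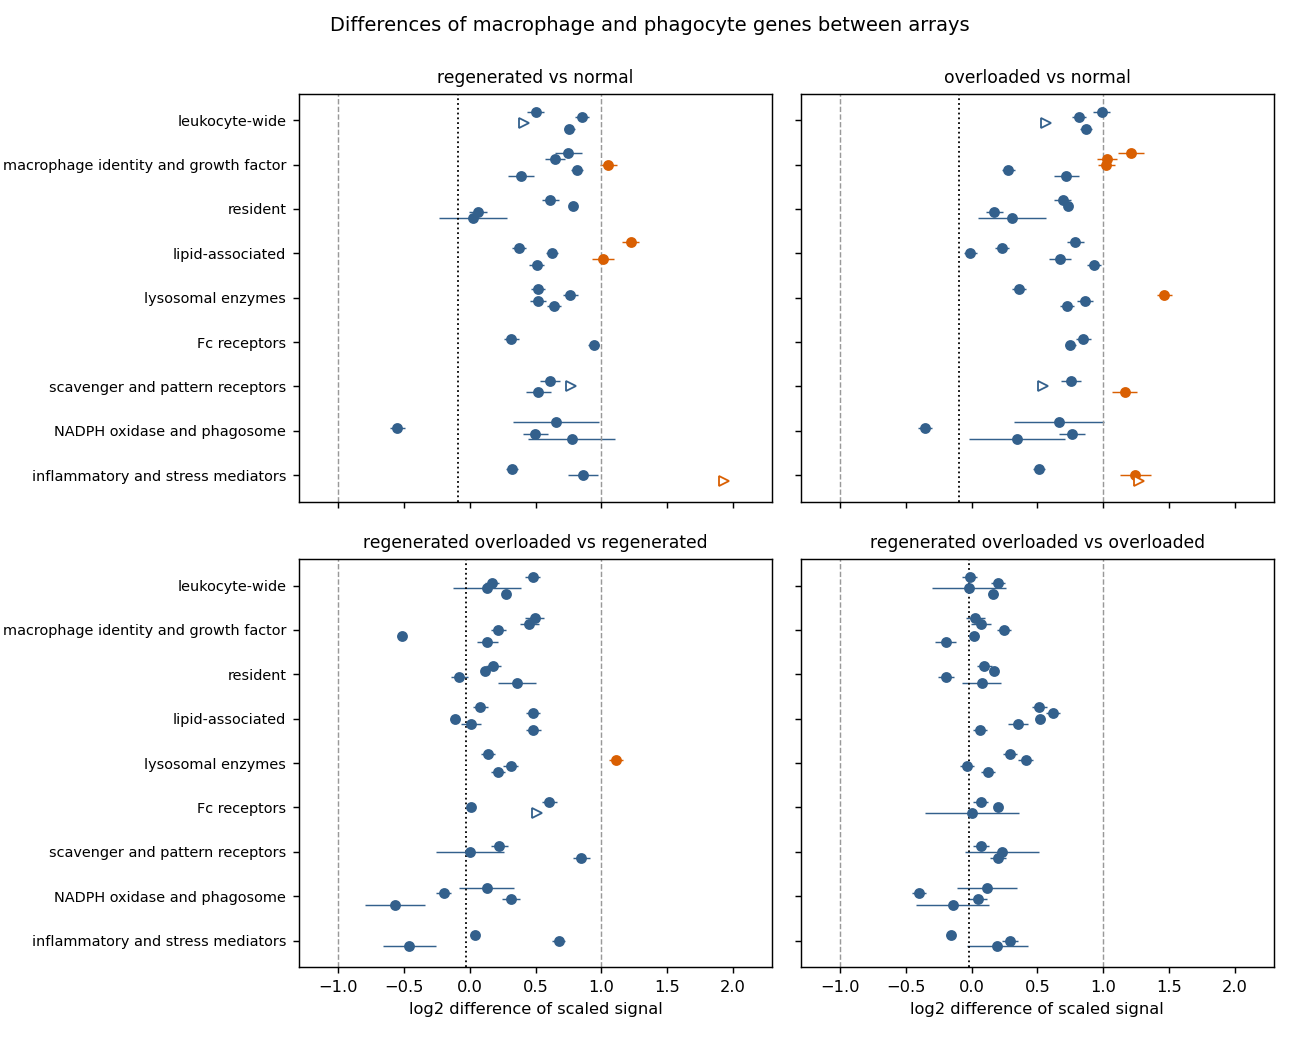
Each panel plots the log2 difference of the scaled signal for the members measured in that comparison, by role, with technical SE bars. Triangles are bounds for genes above background on 1 array alone, and orange marks 2-fold or more. Dashed lines stand at 2-fold and the dotted line at the median of all measured genes. Members lie mostly right of the dotted line in the panels against normal muscle, and cluster nearer to it in the panels that hold regenerated overloaded muscle.

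Genes of all leukocytes were read first. Ptprc, the phosphatase CD45 of all nucleated blood cells, had a scaled signal of 369.9 in regenerated overloaded, 331 in overloaded, 306 in regenerated and 181 in normal muscle. Normal muscle was therefore the low array, and the other 3 lay close together. The difference of Ptprc from normal muscle was 0.76 (SE 0.045) in regenerated and 0.87 (SE 0.047) in overloaded muscle. A second, dimmer probe of Ptprc on 2 spots, not well above background in normal muscle, gave 1.36 and 1.52. Laptm5, a lysosomal membrane protein of blood cells, was 0.85 higher in regenerated muscle and 0.82 higher in overloaded muscle. Cd53, a tetraspanin, was 0.50 and 0.99 higher in the same comparisons, just under 2-fold in overloaded muscle. Plek, the protein kinase C substrate pleckstrin, was not well above background in normal muscle, and was at least 1.33-fold higher in regenerated and at least 1.48-fold higher in overloaded muscle. Such a bound has to be positive, because the gene entered through the array where it was bright. It rests on the dimmest signal called above background, is not a strict limit, and can exceed the fold that normexp gives.

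Among the genes that identify macrophages, Cd68, a glycoprotein of their lysosomes, had 1637 in regenerated overloaded, 1381 in overloaded, 1408 in regenerated and 679 in normal muscle. The regenerated and overloaded arrays were nearly level, and each was just over 2-fold above normal muscle: 2.07-fold in regenerated (log2 1.05, SE 0.065) and 2.03-fold in overloaded muscle (1.02, SE 0.064). Load on regenerated muscle went with a difference of 0.22 (SE 0.056) only.

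Adgre1, the adhesion receptor used in mice as a general macrophage marker, was highest on the loaded arrays. It stood at 455 in regenerated overloaded, 446 in overloaded, 324 in regenerated and 193 in normal muscle. Both loaded arrays were higher than both unloaded ones. Its difference from normal muscle was 2.32-fold in overloaded (1.21, SE 0.099) and 1.68-fold in regenerated muscle (0.75, SE 0.100). Aif1, the actin-binding protein Iba1 of macrophages and microglia, had the same order, with 4985 in regenerated overloaded, 4744 in overloaded, 3642 in regenerated and 2325 in normal muscle. Aif1 was 2.04-fold higher in overloaded (1.03, SE 0.077) and 1.57-fold higher in regenerated than in normal muscle. Its reading came from 1 spot per array, and a second probe with 2 spots gave 0.93 and 0.53.

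The receptor Csf1r and its ligand Csf1, which maintain macrophages, did not share an order. Csf1r had 323 in regenerated overloaded, 370.4 in overloaded, 294 in regenerated and 225 in normal muscle, a spread of 1.65-fold with overloaded muscle on top. Between regenerated overloaded and regenerated muscle its 2 probes disagreed in sign (0.13 and -0.21). Csf1 had 279 in regenerated overloaded, 276 in overloaded, 399.7 in regenerated and 227.5 in normal muscle, from 10 spots per array. Regenerated muscle was the high array for Csf1, 1.76-fold above normal muscle (0.81, SE 0.045), while overloaded muscle was 1.21-fold above it (0.28, SE 0.048). Csf1 in regenerated overloaded muscle was lower than in regenerated muscle by 1.43-fold (-0.52, SE 0.033).

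The resident markers formed unlike pairs. Cd163, the scavenger receptor for haemoglobin, had 1294 in regenerated overloaded, 1210 in overloaded, 1143 in regenerated and 748 in normal muscle, so normal muscle stood apart. Clec10a, a galactose-binding lectin, had 2425, 2154, 2234 and 1294 in the same order of groups, again with normal muscle low. Clec10a was 1.73-fold higher in regenerated (0.79, SE 0.026) and 1.66-fold higher in overloaded than in normal muscle, on 10 spots per array.

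Mrc1, the mannose receptor, had 97.1 in regenerated overloaded, 92.1 in overloaded, 75.7 in regenerated and 74.4 in normal muscle. Its difference between regenerated and normal muscle, 0.02 with an SE of 0.26, was far under its technical error. Lyve1, a hyaluronan receptor of perivascular macrophages and of lymphatic vessels, had 676 in regenerated overloaded, 774 in overloaded, 715 in regenerated and 686 in normal muscle. The 4 arrays of Lyve1 lay within 1.14-fold of each other. Lymphatic markers differed among themselves between regenerated and normal muscle: the receptor Flt4 was at 0.00 (SE 0.12), the mucin Pdpn at 0.55 and the chemokine Ccl21 at 0.78, and Prox1, the defining lymphatic factor, was below background on all arrays. The part of these in Lyve1 was not tested.

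Most lipid-associated markers were higher than in normal muscle with injury and with load, and they differed in which of these arrays was higher. Gpnmb, a glycoprotein of lipid-laden macrophages, had 1555 in regenerated overloaded, 1089 in overloaded, 1472 in regenerated and 629.9 in normal muscle. Both regenerated arrays exceeded the overloaded one, which exceeded the normal one. The difference was 2.34-fold in regenerated against normal muscle (1.22, SE 0.065), 1.73-fold in overloaded against normal muscle (0.79, SE 0.064) and 1.43-fold in regenerated overloaded against overloaded muscle (0.51, SE 0.057). In regenerated overloaded against regenerated muscle it was 0.08 (SE 0.058), little more than the technical error.

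Trem2, the lipid-sensing receptor that signals through Tyrobp, had the same order as Gpnmb on 1 spot per array: 2062 in regenerated overloaded, 1614 in overloaded, 2051 in regenerated and 1016 in normal muscle. Its difference was 2.02-fold in regenerated against normal muscle (1.01, SE 0.083) and 0.01 (SE 0.078) between regenerated overloaded and regenerated muscle. Tyrobp, the adaptor, was ordered by load instead, with 6885 in regenerated overloaded, 6598 in overloaded, 4924 in regenerated and 3464 in normal muscle. Tyrobp was 1.90-fold higher in overloaded muscle (0.93, SE 0.054) and 1.42-fold higher in regenerated muscle (0.51, SE 0.056) than in normal muscle, so receptor and adaptor differed in which array stood second.

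Spp1, the secreted matrix protein osteopontin, had 281 in regenerated overloaded, 196 in overloaded, 304 in regenerated and 197 in normal muscle on 10 spots per array. It was high on the arrays with earlier injury and level between overloaded and normal muscle (-0.01, SE 0.050). The difference was 1.54-fold in regenerated against normal (0.62, SE 0.045) and 1.43-fold in regenerated overloaded against overloaded muscle (0.52, SE 0.042), a pair of comparisons with no array in common. Lgals3, the galactose-binding galectin-3, had 20624 in regenerated overloaded, 13424 in overloaded, 14811 in regenerated and 11444 in normal muscle. Regenerated overloaded muscle stood apart for Lgals3, 1.54-fold above overloaded muscle (0.62, SE 0.052), the largest positive difference of any member in that comparison.

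Of the lysosomal enzymes, Ctsk had the widest range of all members above background on every array. This collagen-cutting cathepsin, which osteoclasts and activated fibroblasts also make, had 4120.2 in regenerated overloaded, 3101 in overloaded, 1906 in regenerated and 1122 in normal muscle. The 4 arrays were well separated, with both loaded arrays above both unloaded ones. Ctsk was 2.76-fold higher in overloaded than in normal muscle (1.47, SE 0.059), 2.16-fold higher in regenerated overloaded than in regenerated muscle (1.11, SE 0.054) and 1.70-fold higher in regenerated than in normal muscle (0.76, SE 0.059). Ctss, a cathepsin of antigen-presenting cells, was 0.86 higher in overloaded and 0.52 higher in regenerated than in normal muscle. Ctsb, a cathepsin of most cells, ran the other way round, 0.36 higher in overloaded and 0.52 higher in regenerated muscle. Lyz2, the lysozyme of myeloid cells, was 0.72 and 0.64 higher in those comparisons.

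Receptors for immunoglobulin G also differed in order. Fcgr1a, the high-affinity activating receptor, had 2291 in regenerated overloaded, 2185 in overloaded, 1508 in regenerated and 1212 in normal muscle, so the loaded arrays were the high ones. Fcgr2b, the inhibitory receptor, had 648 in regenerated overloaded, 563 in overloaded, 643 in regenerated and 335 in normal muscle, with only normal muscle apart. Fcgr2b was 1.92-fold higher in regenerated than in normal muscle (0.94, SE 0.043). A second probe of Fcgr2b, on 1 spot, disagreed with the first: it was 1.30 higher in overloaded than in normal muscle, and 1.05 higher in regenerated overloaded than in regenerated muscle, where the 10-spot probe gave 0.01. Fcgr3a, a low-affinity activating receptor, was above background on the loaded arrays alone, at 26.4 in regenerated overloaded and 26.3 in overloaded muscle, and the normal array's limit allowed no fold.

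The pattern receptor Tlr2, which senses bacterial lipoproteins, had 871 in regenerated overloaded, 757 in overloaded, 484 in regenerated and 338 in normal muscle. Its loaded arrays stood above its unloaded ones, 2.24-fold in overloaded against normal (1.16, SE 0.094) and 1.80-fold in regenerated overloaded against regenerated muscle (0.85, SE 0.065). Cd14, its co-receptor for endotoxin and lipoproteins, was 1.69-fold higher in overloaded and 1.52-fold higher in regenerated than in normal muscle. Msr1, a scavenger receptor for modified lipoproteins, was not well above background in normal muscle and was at least 1.71-fold higher in regenerated muscle and at least 1.46-fold higher in overloaded muscle.

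Subunits of the phagocyte NADPH oxidase, which makes superoxide, differed in direction. Cybb, the catalytic subunit, had 80.6 in regenerated overloaded, 74.3 in overloaded, 73.7 in regenerated and 46.9 in normal muscle, and its difference between regenerated and normal muscle, 0.65, had an SE of 0.33. Ncf4, a cytosolic subunit, was 0.76 higher in overloaded and 0.50 higher in regenerated than in normal muscle. Ncf1, the cytosolic organiser of the complex, had 2807 in regenerated overloaded, 3698 in overloaded, 3223 in regenerated and 4725 in normal muscle. Normal muscle was thus the high array for Ncf1, the only member above background everywhere of which this held. Ncf1 was lower by 1.47-fold in regenerated (-0.55, SE 0.055) and by 1.28-fold in overloaded than in normal muscle (-0.35, SE 0.054). Slc11a1, a metal transporter of the phagosome membrane, had 42.5 in regenerated overloaded, 47.0 in overloaded, 63.2 in regenerated and 37.0 in normal muscle. Its signals were dim, and the SE of its differences lay between 0.23 and 0.37.

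The inflammatory and stress mediators were Il1b, Il1rn and Hmox1. Il1b, the cytokine interleukin-1 beta, had 163 in regenerated overloaded, 133 in overloaded, 102 in regenerated and 56.0 in normal muscle, an order with no near ties. It was 2.37-fold higher in overloaded than in normal muscle (1.25, SE 0.12), 1.82-fold higher in regenerated than in normal muscle (0.86, SE 0.11) and 1.60-fold higher in regenerated overloaded than in regenerated muscle (0.68, SE 0.052). With normexp the first of these was 1.46-fold.

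Il1rn, the secreted antagonist that blocks the interleukin-1 receptor, peaked on another array than the cytokine. Il1rn had 90.1 in regenerated overloaded, 78.7 in overloaded and 124 in regenerated muscle, and 29.5 in normal muscle, where it was not well above background. Regenerated muscle was at least 3.81-fold and overloaded muscle at least 2.42-fold higher than normal muscle by the bound used here. With normexp the folds were smaller than these bounds, at 2.01-fold and 1.57-fold. In regenerated overloaded muscle Il1rn was lower than in regenerated muscle by 1.38-fold (-0.46, SE 0.20). Hmox1, the haem-degrading oxygenase induced by oxidative stress, had 358 in regenerated overloaded, 399 in overloaded, 349 in regenerated and 279.7 in normal muscle, a spread of under 1.5-fold.

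**Figure D3:**
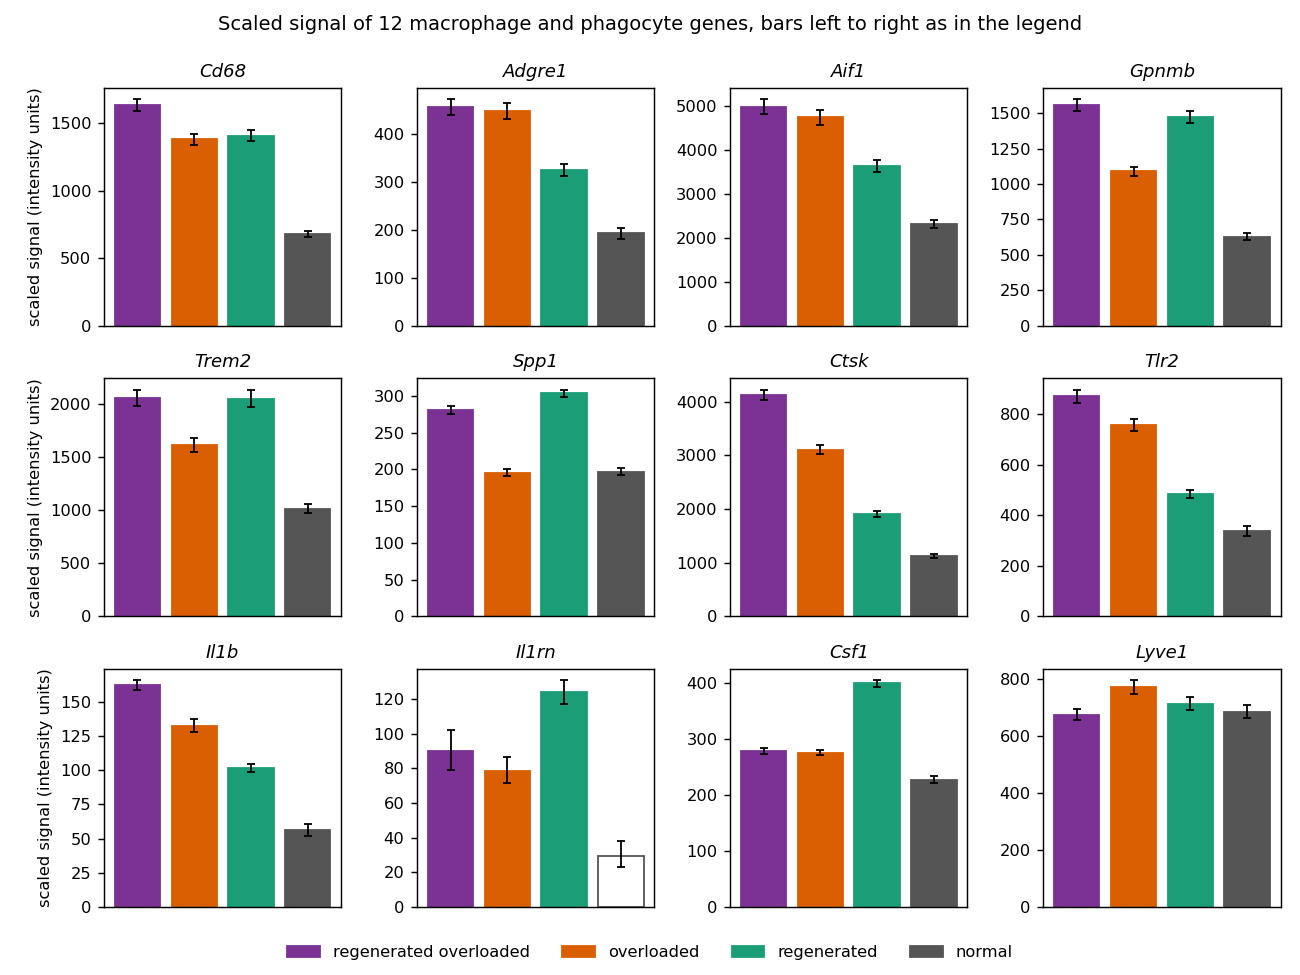
Bars are the scaled signal (intensity units) of 12 members on the 4 arrays, regenerated overloaded, overloaded, regenerated and normal muscle left to right, with technical SE bars; the open bar was not well above background. Ctsk, Tlr2 and Il1b are highest on the loaded arrays, Gpnmb, Trem2 and Spp1 on the arrays with earlier injury, and Lyve1 is nearly level.

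Set side by side, the resident, lipid-associated and inflammatory markers were mostly positive and differed in the size of their differences. The inflammatory group here is Il1b with the antagonist Il1rn and the stress enzyme Hmox1. In regenerated against normal muscle the medians were 0.34 over 4 measured resident genes, 0.62 over 5 lipid-associated genes and 0.86 over these 3 genes. In overloaded against normal muscle they were 0.50, 0.67 and 1.25. The inflammatory median is the value of Il1b in both, with Il1rn at its bound. Over Il1b and Hmox1 alone, the pair above background on both arrays, it was 0.59 and 0.88. With normexp the order of the last 2 groups was reversed: 0.38 for the inflammatory and 0.65 for the lipid-associated genes in regenerated against normal muscle, and 0.55 and 0.66 in overloaded against normal muscle. The further lists described below put resident and lipid-associated genes in the other order. In regenerated against normal muscle their medians were 0.51 for C1q and resident, 0.25 for lipid-handling and 0.62 for inflammatory genes. In overloaded against normal muscle they were 0.75, 0.41 and 0.93, with some inflammatory and resident genes at bounds. Regenerated overloaded against regenerated muscle gave medians of 0.15, 0.08 and 0.04. The last was the value of Hmox1, between Il1b at 0.68 and Il1rn at -0.46. The further lists had medians of 0.19, 0.21 and 0.38 there, in the same order of groups. Regenerated overloaded against overloaded muscle gave medians of 0.09, 0.51 and 0.20. All 5 lipid-associated genes were positive there, between 0.06 for Tyrobp and 0.62 for Lgals3. The 14 further genes of lipid handling described below did not share that size as a group, with a median of 0.12 and 10 positive. They ran from -0.41 for Lpl to 0.70 for Apoe. All 9 measured genes of C1q and resident macrophages described below were positive there too, with a median of 0.10. The groups hold 3 to 5 genes each and overlap in their values: in overloaded against normal muscle, Clec10a of the resident group had a larger difference (0.73) than Lgals3 (0.23) and Spp1 (-0.01). Tlr2, grouped above with the pattern receptors, is not in these medians. It was 0.52 higher in regenerated and 1.16 higher in overloaded than in normal muscle. In regenerated overloaded muscle Tlr2 was 0.85 higher than in regenerated muscle.

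Between the arrays with 1 treatment each, 11 of the 31 members were higher in regenerated than in overloaded muscle, where 53.9% of the 14417 genes were. These 11 were Laptm5, Csf1, Cd68, Clec10a, Gpnmb, Trem2, Lgals3, Spp1, Ctsb, Fcgr2b and Slc11a1. The remaining 20, among them Adgre1, Aif1, Ctsk, Tlr2 and Il1b, were higher in overloaded muscle. Some lay nearly level in regenerated and overloaded muscle: Cd68 (1408 and 1381), Laptm5 (5553 and 5427) and, among the 20, Cybb (73.7 and 74.3). The second probe of Fcgr2b had the opposite order, 248 in regenerated and 418 in overloaded muscle.

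The overload difference was smaller in regenerated than in uninjured muscle for most members. Regenerated overloaded against regenerated muscle and overloaded against normal muscle have no array in common, and 26 of the 31 members were positive in both, where 27.0% of the 14417 genes were. Of those, Ctsk, Tlr2, Il1b and Fcgr1a passed 1.5-fold in both, and Ctsk passed 2-fold in both. Of the 14417 genes, 2.08% passed 1.5-fold and 0.506% passed 2-fold in both. Subtracting the overload difference of uninjured muscle left a negative value for 28 of 31 members, with a median of -0.53. Of all 14417 genes 38.0% were negative and the median was 0.07. The values were -0.81 (SE 0.086) for Cd68, -0.72 for Adgre1, -0.71 for Gpnmb and -0.35 for Ctsk, and the exceptions were Lgals3 (0.25, SE 0.074), Ncf1 (0.15) and Mrc1 (0.05, SE 0.30). All these values subtract the same 4 arrays, so members are not independent of each other, and the normal array enters each with the same sign.

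**Figure D4:**
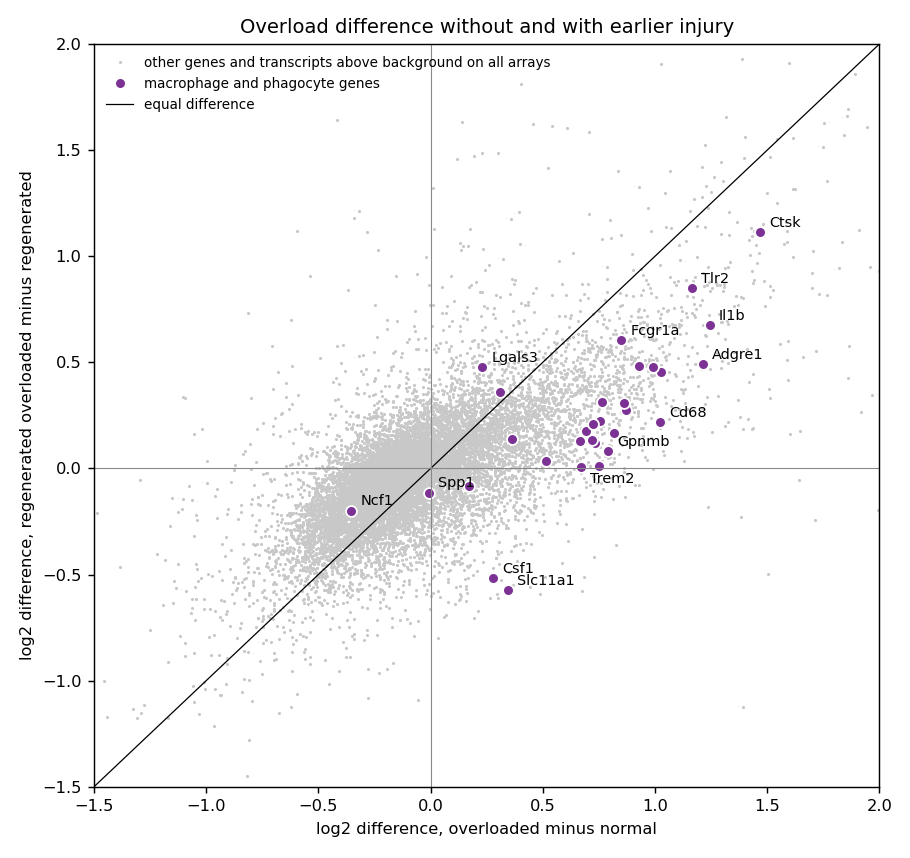
The horizontal axis is the log2 difference of overloaded minus normal muscle and the vertical axis that of regenerated overloaded minus regenerated muscle, with the 31 members above background on all arrays as purple points over all 14417 genes in grey. Of the members, 28 lie below the line of equal difference, and Csf1, Slc11a1 and Lyve1 lie below zero on the vertical axis while positive on the horizontal one.

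Comparisons across earlier injury were read the same way. The difference was positive both without load and with load for 24 of the 31 members, where 23.1% of the 14417 genes were, in comparisons with no array in common, and 0 members passed 1.5-fold in both, where 0.742% of the 14417 genes did.

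Genes beyond the 38 that belong to the same pathways were read from 4 lists. Of 9 measured genes of complement C1q and resident macrophages, Axl, a receptor for dying cells, was at least 2.21-fold higher in regenerated muscle, and no other passed 2-fold in any comparison. The chains C1qa, C1qb and C1qc were 0.80, 0.55 and 0.63 higher in regenerated and 0.97, 0.79 and 0.92 higher in overloaded than in normal muscle. Cx3cr1, the fractalkine receptor, was 0.02 and -0.35 in the same comparisons. Of 14 further genes of lipid handling, 2 passed 2-fold against normal muscle, the lipid carrier Apoe and the cholesterol exporter Abcg1. Abcg1 was 2.45-fold higher in regenerated and 2.94-fold higher in overloaded muscle. Abca1, its partner exporter, was 1.67-fold and 1.90-fold higher, and none of the 14 passed 2-fold in the comparisons that hold regenerated overloaded muscle. Lpl, Cd36 and Plin2, which fibres and fat cells also express, were -0.39, -0.29 and -0.05 in regenerated against normal muscle.

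Of further inflammatory genes, Il1r2, the decoy receptor for interleukin-1, and the chemokine Ccl3 were at least 2.57-fold and 2.34-fold higher in regenerated than in normal muscle, 2 of 9 measured. In overloaded against normal muscle 3 of 11 passed 2-fold: the monocyte chemokine Ccl2, the endotoxin receptor Tlr4 (2.28-fold, log2 1.19, SE 0.33) and the cytokine Il18 (2.18-fold). In regenerated overloaded against regenerated muscle 2 of 12 did, Ccl2 (2.43-fold) and S100a4 (2.02-fold), a calcium-binding protein that fibroblasts also make. Il6, Ptgs2 and Nlrp3 were below background on all arrays. The dim Nos2 was -0.26 and -0.47 (SE 0.18 and 0.20) in regenerated and overloaded against normal muscle. Of 12 measured oxidase and adaptor genes, Syk, the kinase that acts below Tyrobp and Fc receptors, was at least 2.15-fold and Il34, the other ligand of Csf1r, 2.01-fold higher in overloaded than in normal muscle, and none passed 2-fold in the other comparisons. Itgam, the integrin chain CD11b of myeloid cells, was dim, at -0.25 and -0.47 (SE 0.18 and 0.20) in regenerated and overloaded against normal muscle.

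Markers of other cells were measured beside these. The 6 fibroblast markers summed to 155769 in regenerated overloaded, 123543 in overloaded, 91030 in regenerated and 44716 in normal muscle, so normal muscle was the lowest array here too. Such sums follow the brightest probes: in regenerated overloaded muscle Col3a1 gave 63785, Col1a1 57846 and Dcn 30634, but Thy1 111. In overloaded against normal muscle 4 of the 6 were 2-fold or more higher, in regenerated against normal muscle 2, Col1a1 and Col3a1, and in regenerated overloaded against regenerated muscle 3, Thy1, Lum and Col1a1, where Ctsk was the only member past 2-fold. Their part in the values of Ctsk, Csf1, Lgals3 and Ctsb, which fibroblasts also express, was not tested. Acp5, the acid phosphatase shared by osteoclasts and macrophages, was 1.37 and 1.82 higher in regenerated and overloaded than in normal muscle, whereas Calcr, the calcitonin receptor of osteoclasts, was 0.25 and 0.23 (SE 0.35 and 0.37) and Oscar, an osteoclast receptor, -0.23 and -0.36. Of 6 neutrophil markers on the arrays, Mmp8, Csf3r and Cxcr2 were below background throughout, and the 6 summed to 212, 176 and 166 in regenerated overloaded, overloaded and regenerated muscle and to 154 in normal muscle. Only S100a9 was above background in normal muscle, so these sums hold signal not called above background. In regenerated overloaded against regenerated muscle S100a9 was 0.50 (SE 0.14), S100a8 0.59 (SE 0.29) and Camp -0.02 (SE 0.32). Of 7 T cell markers, Cd3e, Cd2 and Lck were below background throughout, with sums of 357, 369 and 341 in the treated groups in that order and 297 in normal muscle. The T cell markers above background on all arrays went opposite ways in regenerated and overloaded against normal muscle. Cd3g was 0.77 and 0.86, and Cd3d, on 10 spots, 0.27 and 0.32 (SE 0.048 and 0.050). The dim Cd5 was -0.96 and -0.42 (SE 0.42 and 0.40). The part of neutrophils and T cells in the leukocyte-wide genes was not tested.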

How the data were processed

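The 38 members, their role groups and the related and marker lists were chosen with earlier results of these data known. Per the labels, total RNA of 6 muscles per group was mixed and Cy3-labelled for 1 Agilent array each. The deposited scanner files give the processed signal of each spot as an intensity, background-subtracted by Feature Extraction (11.5.1.1 and protocol GE1_1105_Oct12 per the file headers, 10.10.1.1 per the submitters' processing notes). The deposited flags for outlying spots and for spots well above background were used as given, as was, for an alternative, the authors' deposited series table of intensity, which is the processed signal times 1 factor per array.

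Outlying spots (406 to 451 of 58717 per array) were left out, and none was saturated. Log2 processed signal minus the array's 75th percentile was averaged over spots, and a gene was read from its brightest probe. A probe counted as above background where over 0.5 of its spots were. A gene was measured if so on 1 of the 2 arrays. One above background on 1 array alone has a bound against the lowest signal called above background on the other. Its own signal there was taken where that was higher. The bound is no strict limit, because genes not called could exceed that lowest signal (Axl at 39.7, against 32.5, in normal muscle). Technical SEs rest on the SD among repeated spots, pooled in 20 signal bins. Of 30367 probes, 18643 matched 15637 symbols by accession in RefSeq (GRCr8); the file headers name build rn4, so GRCr8 serves names and promoters alone. Every member is accounted for; those 2-fold or more in a comparison, or first or last in one, are described in full. Genes beyond the members were named where 2-fold or where they define their list, and a few more (Cx3cr1, Lpl, Cd36, Plin2, Abca1, Nos2, Itgam, Flt4) after their values were seen. The alternatives were normexp (limma 3.58.1, offset 50, on median signals) with quantile normalization, 3 other scalings, the mean over probes, 2 filters, 2 choices of spots and a limit of 1.5-fold. Python 3.11.15, numpy 2.4.6, pandas 2.3.3 and R 4.3.3 were used, and the calculations were tested on simulated data.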

Additional observations from a re-analysis of the deposited data

Results flagged for a closer look

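Csf1, the growth factor of macrophages, differed in direction between the loaded pairs. The overload difference was -0.52 (technical SE 0.033) in regenerated muscle and 0.28 (technical SE 0.048) in uninjured muscle, a difference of -0.80 between them (technical SE 0.058), with 1 array per group. The difference was not tested.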

How the results depend on the processing

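Of 1231 member differences recomputed over 9 alternatives, 1101 stayed within their 95% technical interval and 130 moved further; 26 changed sign, none of them over 0.13 in size. In regenerated against normal muscle 4 members passed 2-fold, and 2 did with normexp and with median scaling, Gpnmb and Il1rn; Cd68 and Trem2 came to 0.99 each with normexp. In overloaded against normal muscle 7 passed, 3 with normexp (Ctsk, Aif1 and Tyrobp) and 12 with the authors' factor. In regenerated overloaded against regenerated muscle 1 passed, and 2 without the filter on dim probes, where Mpeg1 joined Ctsk. At 1.5-fold the counts in the 4 comparisons were 20, 23, 4 and 1. Gpnmb in regenerated and Ctsk in both loaded pairs stayed past 2-fold under all 9 alternatives, and Il1rn in regenerated muscle under 8, not being measured where both arrays had to be above background.

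In regenerated against normal muscle the member median ranged from 0.53 to 0.76, the median of all genes from -0.18 to 0.04 and the gap of the medians from 0.55 to 0.79. In overloaded against normal muscle these ranges were 0.62 to 0.91, -0.22 to 0.08 and 0.65 to 0.93. In regenerated overloaded against regenerated and against overloaded muscle the gap was 0.18 to 0.24 and 0.08 to 0.12.

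The counts of all genes past 2-fold (324, 546, 342 and 295, in the order of the comparisons above) were 114, 212, 102 and 55 under normexp, 199, 376, 227 and 144 where both arrays had to be above background, 189, 330, 178 and 124 without probes printed once, 2209, 5698, 1460 and 1438 without the filter, and 1353, 1907, 1220 and 935 at 1.5-fold.

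No paired analysis was possible because each group had 1 array and the labels give neither replicate numbers nor whether muscles came from the same rats, and leave-one-out values do not exist for the same reason. Signal over background limits Plek, Msr1, Fcgr3a, Il1rn, Cybb and Slc11a1 on the normal array.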
